A study of Drosophila melanogaster with 3 samples.

Results

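The 8 homeotic (Hox) genes and the genes of their 2 DNA-binding cofactors were examined for chromatin bound by CG5180, a Drosophila protein whose gene has only an annotation number for a name. The genes were listed by name: lab, pb, Dfd, Scr and Antp of the Antennapedia complex (ANT-C), Ubx, abd-A and Abd-B of the bithorax complex (BX-C), and the cofactor genes hth and exd. They are 10 of 13945 protein-coding genes, and 35 of the 5400 peaks that the authors kept as reproducible lay in them or within 10 kb of them. Chromatin immunoprecipitation with sequencing (ChIP-seq) had been done with an antibody against GFP on whole embryos of Drosophila melanogaster, male and female, aged 0 to 16 h, from a line stably carrying CG5180 with GFP fused to its C terminus. The 3 biological replicates form a single group, and no untagged embryos and no control library were analysed here, so a peak is described as enriched in these lists and not as specific to CG5180. Peak lists from whole embryos do not show which cells carried a signal, and each Hox gene is active in only some segments.

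Hox proteins are homeodomain transcription factors that give each body segment its identity, and their genes lie along the chromosome in the order of the segments they specify. Loss of a Hox gene turns one segment into the likeness of another. Hox proteins bind DNA together with Extradenticle (exd), a PBC-class homeodomain protein, and Homothorax (hth), a MEIS-class homeodomain protein that carries Extradenticle into the nucleus. Polycomb and trithorax group proteins hold the Hox genes in their silent or active states through long stretches of regulatory DNA.

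A peak was assigned to a gene when its summit, the position of highest signal, lay in the gene body or within 10 kb of it. The lists used, all on genome build dm6, were of several kinds: the IDR list, which holds the 5400 peaks that the authors kept as reproducible (IDR, irreproducible discovery rate), the pooled list of 30000 peaks from the replicates together, and a list of 30000 peaks for each replicate. The authors label the pooled list as peaks and background, the input for IDR. A pooled peak outside the IDR list may therefore be background and need not be a bound site. The IDR peaks were exactly the 5400 strongest peaks of the pooled list. Whether a pooled peak is an IDR peak thus follows from its pooled signal, and a single IDR peak can rank far lower in a replicate. The signal value of a peak is the authors' own score and has meaning only within its list, so replicates were compared by rank, with rank 1 the strongest. No peak was identical in position and signal between any pair of replicate lists.

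By this rule 9 of the 10 genes had an IDR peak, where 54.7% of all protein-coding genes did. Among genes with a body of at least 10 kb, which 9 of these 10 genes also have, the share was 72.3%. The only gene without a peak was exd, the shortest of the set. A summit within 250 bp of a transcription start site (TSS) was found at 5 of the 10 genes, namely Dfd, lab, Abd-B, Ubx and hth, beside 12.0% of all protein-coding genes and 30.2% of those with a body of at least 10 kb. The same 5 genes had such a summit among the 5400 strongest peaks of each of the 3 replicates. Counted by TSS position, 5 of 24 starts of these genes had a summit, beside 10.5% of all starts of protein-coding genes. In the gene body itself, 6 of the 10 genes had an IDR summit, beside 13.0% of protein-coding genes, and the summits of Dfd, Scr and abd-A all lay outside the body. A longer body has more room for a summit, and 9 of these 10 genes have a body of at least 10 kb. The share of genes of that length with a summit in the body was not computed, so the 13.0% is not matched for length.

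The bases just before the 5 starts that carried a summit are shown here, because the promoter peaks of these genes cover them. Each run is the 180 bases upstream of the TSS, written 5′ to 3′ on the strand of the gene from the release 6 genome, and capitals mark GAGAG or its reverse complement CTCTC, the core of the GAGA factor sequence.
Dfd (chr3R:6791656-6791835, plus strand): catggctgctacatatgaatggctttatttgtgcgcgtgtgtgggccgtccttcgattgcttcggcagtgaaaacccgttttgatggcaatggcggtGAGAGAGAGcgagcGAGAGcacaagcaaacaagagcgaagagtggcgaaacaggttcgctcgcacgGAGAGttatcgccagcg
lab (chr3R:6678591-6678770, minus strand): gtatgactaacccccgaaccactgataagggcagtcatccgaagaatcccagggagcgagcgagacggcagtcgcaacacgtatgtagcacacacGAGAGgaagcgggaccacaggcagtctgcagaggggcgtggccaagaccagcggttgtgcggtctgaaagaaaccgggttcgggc
Ubx (chr3R:16734427-16734606, minus strand): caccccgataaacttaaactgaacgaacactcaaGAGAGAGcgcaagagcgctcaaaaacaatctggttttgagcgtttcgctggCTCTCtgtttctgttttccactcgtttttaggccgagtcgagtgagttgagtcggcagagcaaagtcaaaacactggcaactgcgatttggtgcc
hth (chr3R:10614277-10614456, minus strand): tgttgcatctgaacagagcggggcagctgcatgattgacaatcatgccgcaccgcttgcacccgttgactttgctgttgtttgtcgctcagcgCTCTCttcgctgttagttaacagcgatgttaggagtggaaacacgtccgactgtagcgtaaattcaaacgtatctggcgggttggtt
Abd-B, inner start (chr3R:16934243-16934422, minus strand): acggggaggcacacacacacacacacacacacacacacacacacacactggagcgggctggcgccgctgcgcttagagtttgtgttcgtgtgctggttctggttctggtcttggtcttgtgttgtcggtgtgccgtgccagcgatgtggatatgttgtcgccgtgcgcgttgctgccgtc
Within these bases Dfd held 5 matches, Ubx 3, lab 1 and hth 1, counting overlapping ones, and the inner start of Abd-B held 0 and carries a run of CA repeats instead. Of 19607 starts of protein-coding genes, 23.6% held a match in the same 180 bases, and of the 2056 starts with an IDR summit within 250 bp, 32.1% did. The Dfd run also held 4 matches to GCCAT or its reverse complement, the core of the sequence bound by the Polycomb-recruiting protein Pho, and the other 4 runs held 0. A match says only that these letters are present.

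Dfd, which specifies the mandibular and maxillary segments of the head, had the strongest promoter peak of the set. Its summit lay 61 bp upstream of the single annotated TSS, in a peak of 656 bp (3R, 6791433 to 6792088) with a signal value of 2695 and rank 257 in the IDR list. The signal values in replicates 1, 2 and 3 were 1194, 875 and 639, at ranks 249, 286 and 272. The ranks thus stayed close together (mean 269 ± 18.7, SD, n = 3), within the strongest 1% of each list. A weaker IDR peak lay 4394 bp beyond the 3' end of the gene (signal value 424, rank 1828), and the pooled list held only 1 further peak inside the gene body, at rank 17986.

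lab, the Hox gene of the most anterior expression and of the midgut, had 6 IDR peaks in a window of 37.2 kb. The peak at the 5' start had its summit 68 bp upstream of the TSS, with a signal value of 806 and ranks of 822, 1037 and 742 in the replicates. The other 5 lay in introns, and the strongest of them (3R, 6665005 to 6665635, signal value 1113, rank 545) was 1805 bp upstream of the inner start used by transcript lab-RB. That peak had ranks of 705, 610 and 430 in the replicates (582 ± 140, SD, n = 3). A neighbouring intronic peak with its summit 1132 bp from the same start had a signal value of 899.7 and ranks of 632, 1073 and 637. The inner start itself had no IDR summit within 250 bp, but a pooled peak of rank 14500. The weakest of the 6, with rank 4626 in the IDR list, ranged from 3264 to 7732 in the replicates. Another of the 6, with its summit 2004 bp upstream of the inner start, shares the interval of the strongest intronic peak.

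Abd-B, which specifies the posterior abdomen, held the strongest peak of the whole set, and it lay outside the gene. The peak (3R, 16918996 to 16919562) had its summit 7980 bp beyond the 3' end of Abd-B, in an intron of the noncoding gene lncRNA:iab8, with a signal value of 3627 and rank 209. In replicates 1, 2 and 3 the signal values were 1612, 1109 and 927, at ranks 201, 237 and 207 (215 ± 19.3, SD, n = 3). A second summit in the same region, 7735 bp beyond the 3' end, had a signal value of 278 and was matched in replicates 2 and 3 only, at ranks 1973 and 3954. The sequence around the stronger summit is shown because it is the strongest bound site near any Hox gene.
Abd-B, downstream peak (chr3R:16919132-16919332, plus strand): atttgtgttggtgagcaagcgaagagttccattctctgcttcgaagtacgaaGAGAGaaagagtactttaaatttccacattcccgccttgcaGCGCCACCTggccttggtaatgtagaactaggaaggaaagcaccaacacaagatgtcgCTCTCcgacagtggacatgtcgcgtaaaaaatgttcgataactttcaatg
The run is 201 bases centred on the summit, with GAGAG and CTCTC in capitals, and also GCGCCACCT, the reverse complement of AGGTGGCGC, the core of the sequence bound by the insulator protein CTCF. This last motif was looked for after the sequence had been seen. Its centre lay 3 bp from the summit. Within 100 bp of the summit on either strand it was present in 1 of the 35 peaks of these genes, this one, and in 20 of all 5400 IDR peaks (0.37%). CTCF is known to bind boundary elements of the bithorax complex; its binding was not measured here.

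Abd-B has 6 start positions, and its promoter peak was at the innermost one, 38.0 kb downstream of the outermost start. This start belongs to transcripts Abd-B-RB and Abd-B-RH. The summit lay 60 bp upstream of it (signal value 623, rank 1115), with ranks of 960, 1758 and 946 in the replicates. Further summits in the same intron followed 323 and 667 bp upstream of this start, the latter the strongest inside the gene (signal value 779), with ranks of 879, 921 and 825. The summit at 323 bp belongs to a peak that overlaps the promoter peak. An intronic peak 1997 bp downstream of the start of Abd-B-RA had a signal value of 527 and ranks of 1990, 1233 and 1396. The 5 outer starts of Abd-B had no IDR summit and no pooled summit within 250 bp. Of the 10 pooled peaks in the window of Abd-B 6 were IDR peaks, which is 60.0%, beside 18.0% for the whole pooled list. Overlapping peaks were counted separately here, and the 6 include overlapping ones at the promoter and beyond the 3' end.

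Ubx, which specifies the haltere-bearing segment and the front of the abdomen, had a single IDR peak in a window of 97.8 kb, and it was at the start of the gene. The summit lay 45 bp downstream of the TSS shared by all 6 annotated transcripts, in the 5' UTR (3R, 16734149 to 16734612, signal value 383, rank 2088). Signal values in the replicates were 139, 146 and 86.6, at ranks 2395, 2103 and 2577 (2358 ± 239, SD, n = 3). The other 21 pooled peaks of the window were weaker. The strongest of them, at rank 7030, lay outside Ubx and 40 bp from a start of the neighbouring gene modSP. The strongest other pooled peak in the body of Ubx had rank 9492. Among the 161 other protein-coding genes whose window was within 25% of this length, the median was 2 IDR peaks, and 66.5% had more than Ubx.

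**Figure D1:**
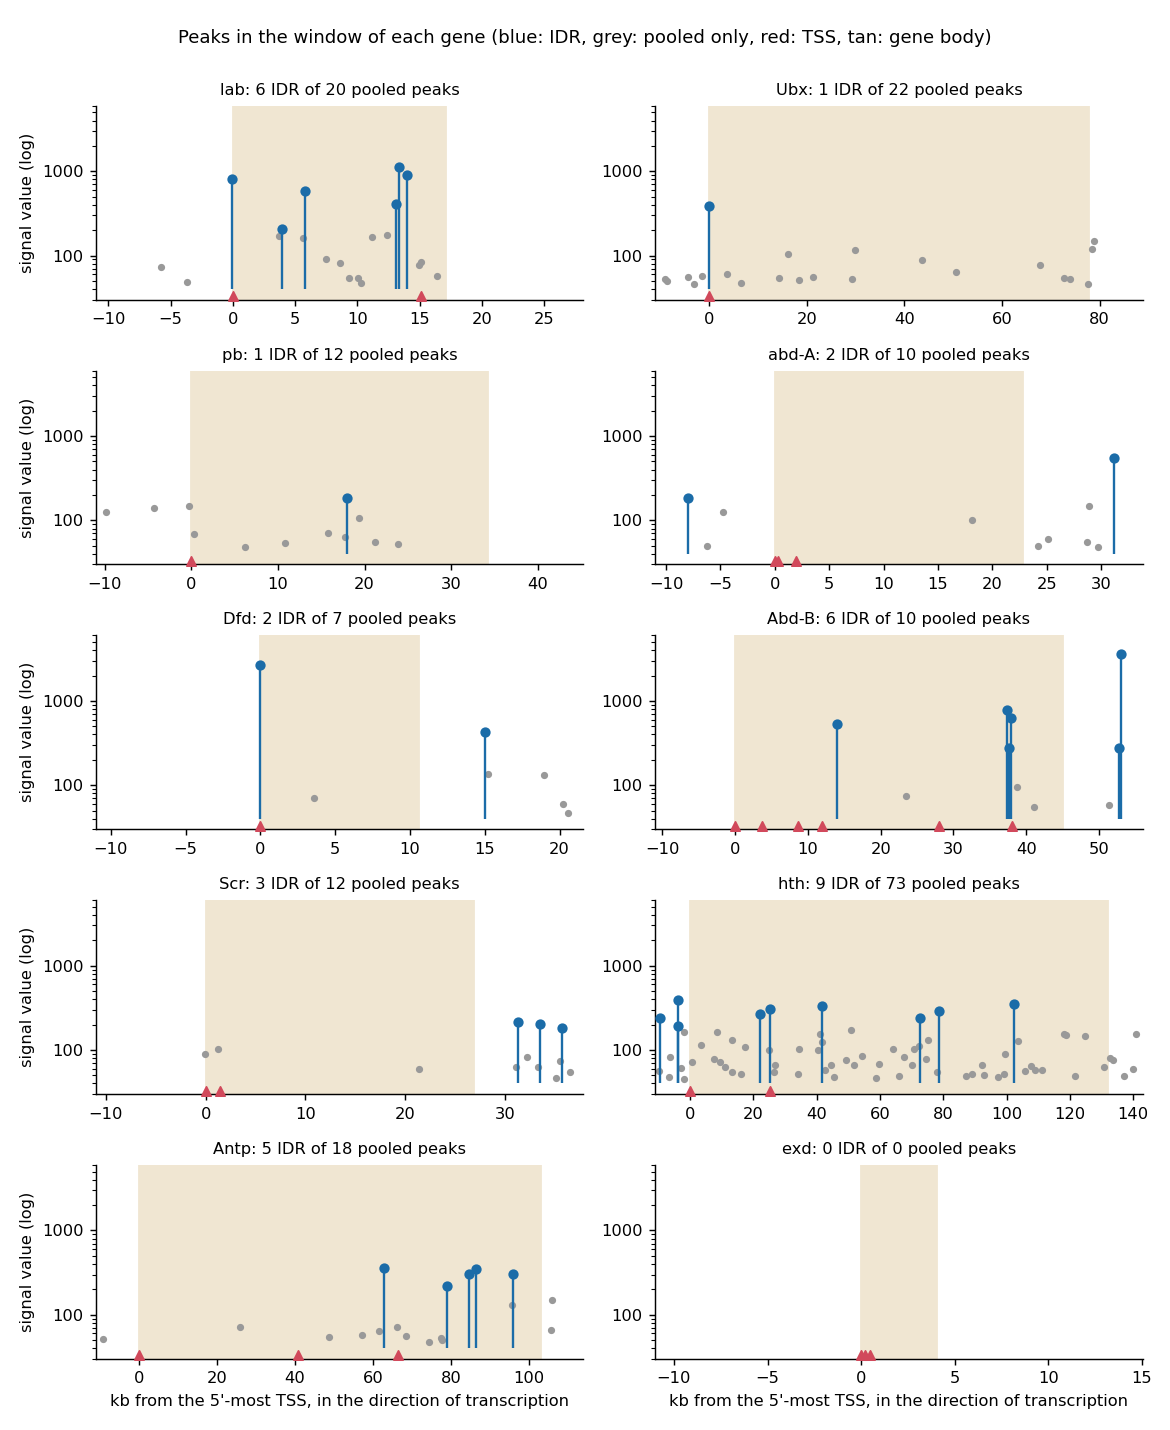
Signal value on a log axis against the distance from the 5'-most TSS in kb, in the direction of transcription, for each of the 10 genes with 10 kb on each side. Blue lines mark IDR peaks, grey points pooled peaks that are not IDR peaks, red triangles TSS positions and tan the gene body; Dfd and Ubx have their strongest peak at the start, Abd-B has its strongest beyond the 3' end, and exd has none.

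abd-A, the Hox gene of the middle abdomen, had 2 IDR peaks, and both lay outside the gene, 1 on each side. The stronger (signal value 548, rank 1329) was 8325 bp beyond the 3' end, in intergenic DNA, with closely similar ranks of 1406, 1428 and 1480 in the replicates (1438 ± 38.0, SD, n = 3). The protein-coding start nearest to this peak was that of Glut3, 10578 bp away. The other, 7974 bp upstream of the 5' start in an intron of lncRNA:iab8, had a signal value of 186 and ranks of 8839, 4990 and 4231. None of the 3 starts of abd-A had an IDR or a pooled summit within 250 bp, and replicate 1 alone listed a summit there, at rank 16359. With windows of 5 kb in place of 10 kb abd-A had no IDR peak.

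Scr, which acts in the labial segment and the foremost thoracic segment, had no IDR summit in its body or near its starts. Its 3 IDR peaks lay 4422, 6694 and 8865 bp beyond its 3' end, with signal values of 216, 201 and 184. They stand in the stretch between Dfd and Scr, and the nearest protein-coding start to each was that of Dfd, 22419 to 26862 bp away. The middle one was 47 bp from a start of the noncoding gene lncRNA:CR42651. The 3 peaks were among the weakest IDR peaks, and replicate 2 had none of them among its strongest 5400. The weakest was at rank 3501 in replicate 1 and at rank 17426 in replicate 3. At the starts of Scr the pooled list had peaks of ranks 11027 and 13362, well below the IDR limit of 5400.

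pb, which is needed for the mouthparts, had 1 IDR peak in its window of 54.3 kb. The peak was intronic, 18020 bp downstream of the TSS, with a signal value of 184 and rank 5331, just inside the limit. Its ranks were 5146 and 5351 in replicates 1 and 2 and 7971 in replicate 3, so it was among the strongest 5400 in replicates 1 and 2 only. The strongest pooled peak of the window outside the IDR list was well below the limit, at rank 7011, with its summit 275 bp upstream of the start.

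Antp, which specifies thoracic identity, had 5 IDR peaks, all in introns of its body of 103 kb, and none at any of its 3 starts. These introns also belong to the overlapping gene CG46458. The strongest (signal value 357, rank 2273) was 3546 bp upstream of the innermost start, with ranks of 2978, 2157 and 2736 in the replicates. The other 4 lay from 12688 to 29475 bp downstream of that start, with signal values from 218 to 350. The peak of the lowest signal had nearly the same rank in every replicate, 4725, 4892 and 4836. No list held a summit within 250 bp of a start of Antp.

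The strongest IDR peaks of the genes, matched by position, could be put in order by their ranks in the 3 replicates. A replicate could rank another peak of the same gene higher. This was so for lab in replicate 1 (632), and in replicates 2 and 3 for hth (1732 and 2214) and Antp (1937 and 1942). The ranks of Abd-B (201 to 237) came before those of Dfd (249 to 286), then lab (430 to 705) and abd-A (1406 to 1480), with no overlap between neighbours. After these came hth (1794 to 2741), Ubx (2103 to 2577) and Antp (2157 to 2978), whose ranks overlapped, so that their order does not exceed the spread between replicates. Scr (3826 to 5581) and pb (5146 to 7971) followed, and overlapped each other but not the genes before them. The order does not follow the order of the genes along the chromosome, since the first 4 are, in turn, a BX-C, 2 ANT-C and a BX-C gene.

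**Figure D2:**
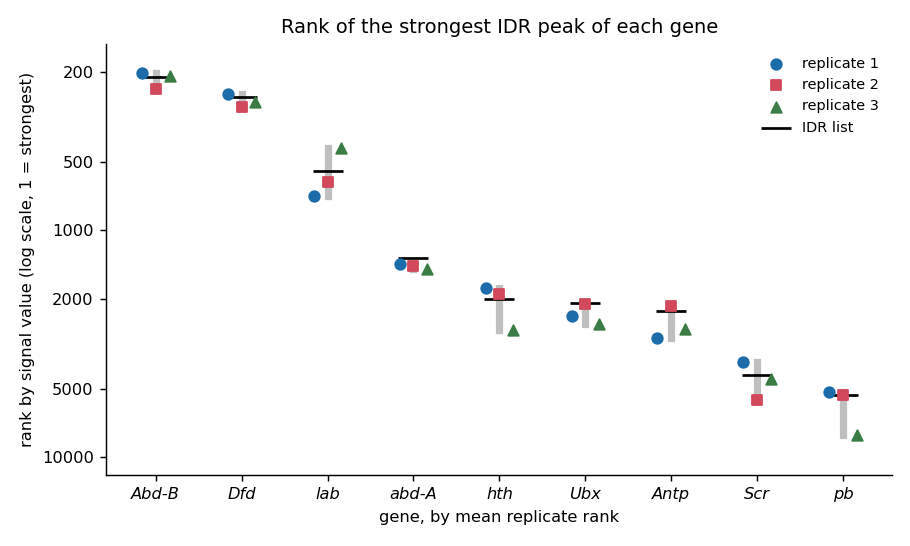
Rank by signal value (log axis, strongest at the top) of the strongest IDR peak of each of the 9 genes with an IDR peak. Points are the 3 replicate lists, grey bars their range and black dashes the rank in the IDR list; the ranges of Abd-B, Dfd, lab and abd-A are separate, and those of hth, Ubx and Antp overlap.

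The cofactor genes hth and exd stood at opposite ends of the set by number of peaks. hth had 9 IDR peaks and 73 pooled peaks in its window of 152 kb, the largest numbers of the set, and exd had 0 of either in its window of 24.0 kb. Per 100 kb of window hth had 5.92 IDR peaks, fewer than lab, Abd-B, Dfd and Scr. Of the pooled peaks of hth 12.3% were IDR peaks, beside 18.0% for the whole pooled list. Its strongest peak (signal value 395, rank 2005, ranks 1794, 1917 and 2741 in the replicates) lay 3712 bp upstream of the outermost start, in an exon of asRNA:CR44018. At the inner start, used by transcripts hth-RA, hth-RC, hth-RF and hth-RI, the summit was 167 bp upstream, with a signal value of 303 and ranks of 3040, 4458 and 2214. The other 5 IDR peaks in the gene body were in introns, up to 76991 bp from the nearest start, and the outermost start had no summit within 250 bp in any list. The hth peak of rank 5092, which overlaps the peak of rank 2005, had ranks from 9929 to 20227 in the replicates, outside the strongest 5400 of each. Of the 68 other genes with windows within 25% of this length, the median was 3 IDR and 24 pooled peaks, and 14.7% had more than 9 IDR peaks.

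The IDR summit nearest to exd was 93.9 kb from the gene. At least 1 pooled peak lay in the windows of 84.5% of all protein-coding genes, but none lay in that of exd. Replicate 1 listed 1 peak in the window, 8678 bp from the gene at rank 13696, and replicate 3 listed another, 1518 bp from the gene at rank 9698, while replicate 2 listed none. Among the 11977 other genes with windows within 25% of this length, 48.2% had no IDR peak and 17.0% no pooled peak. Lists of fixed length do not show that chromatin at exd was unbound.

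The windows of the 10 genes together span 674 kb and held 5.20 IDR peaks per 100 kb, beside 3.73 on arm 3R, which carries 9 of the genes, and 4.03 over the 6 chromosome arms. In the strongest 5400 peaks of each replicate the windows had 5.35 ± 0.257 per 100 kb (SD, n = 3) and arm 3R 3.75 ± 0.0280. The windows were built around genes, whereas an arm density divides by every base of the arm. The arm values are thus not matched to windows of other genes, and the difference was not tested. By part, the IDR density was 5.825 in the ANT-C windows, 4.376 in the BX-C windows and 5.112 in those of hth and exd. The replicates held 37, 34 and 37 peaks in the windows. In the IDR list the densest window was that of lab, with 16.1 peaks per 100 kb, and Ubx the sparsest with any peak, 1.02. Overlapping peaks were counted separately in these densities, and merging them lowered the density of the 10 windows. The median number of IDR peaks per gene was 2.5 for the 10 genes and 1 for all protein-coding genes, whose windows are mostly shorter. Pooled peaks in the windows numbered 184, of which 19.0% were IDR peaks, close to the 18.0% of the whole pooled list. Matched by nearest summit, 24 of the 35 peaks (68.6%) were among the strongest 5400 of all 3 replicates, and 65.3% of all IDR peaks were.

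**Figure D3:**
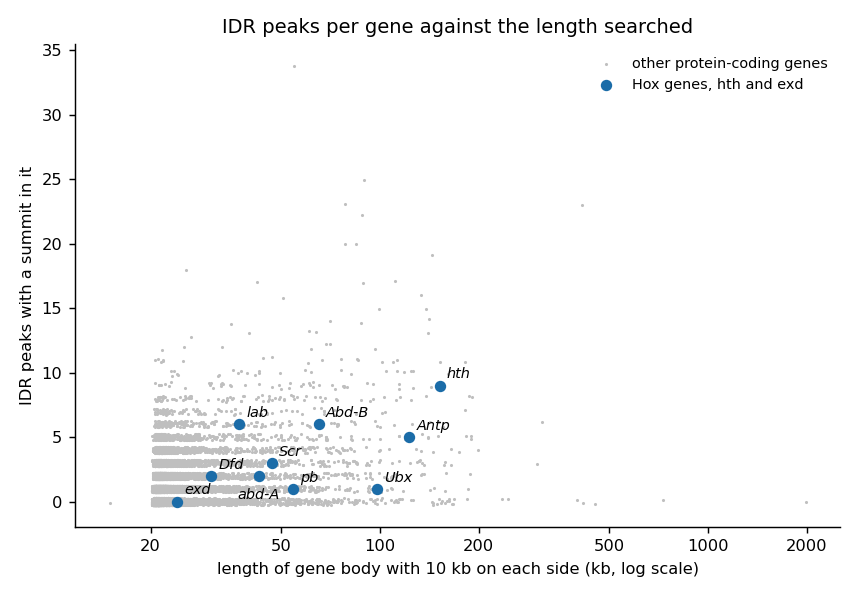
Number of IDR peaks with a summit in the gene body or within 10 kb, against the length of that window in kb (log axis). Blue points are the 10 genes and grey points all other protein-coding genes, shifted slightly at random in height so that they can be seen; hth has 9 peaks, lab and Abd-B 6 each, and Ubx 1 in 97.8 kb.

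Taken as chromosome segments from the outermost gene ends, the ANT-C (3R, 6661427 to 6999228) held 19 IDR peaks in 338 kb and the BX-C (3R, 16656623 to 16972236) held 14 in 316 kb. The replicates' strongest peaks gave 20 ± 1.73 and 14.3 ± 0.577 (SD, n = 3). In the ANT-C 11 of the 19 lay in the bodies of the 5 Hox genes, and in the BX-C 5 of the 14 lay in the bodies of the 3. The BX-C peaks outside the gene bodies included 3 in introns of lncRNA:bxd, a noncoding gene of the regulatory region upstream of Ubx, with signal values of 233, 392 and 246. They also included a strong one between abd-A and Abd-B in an intron of lncRNA:iab8 (3R, summit 16899467, signal value 1398, rank 418). Its ranks were 405, 493 and 425 in the replicates, and it belongs to the window of neither gene. The longest stretch without an IDR summit was 84.7 kb in the ANT-C, from the 3' side of Scr into Antp, with 7 pooled peaks of which the strongest had rank 6823. In the BX-C it was 77.8 kb, the whole body of Ubx up to its promoter peak, with 14 pooled peaks, the strongest at rank 9492.

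**Figure D4:**
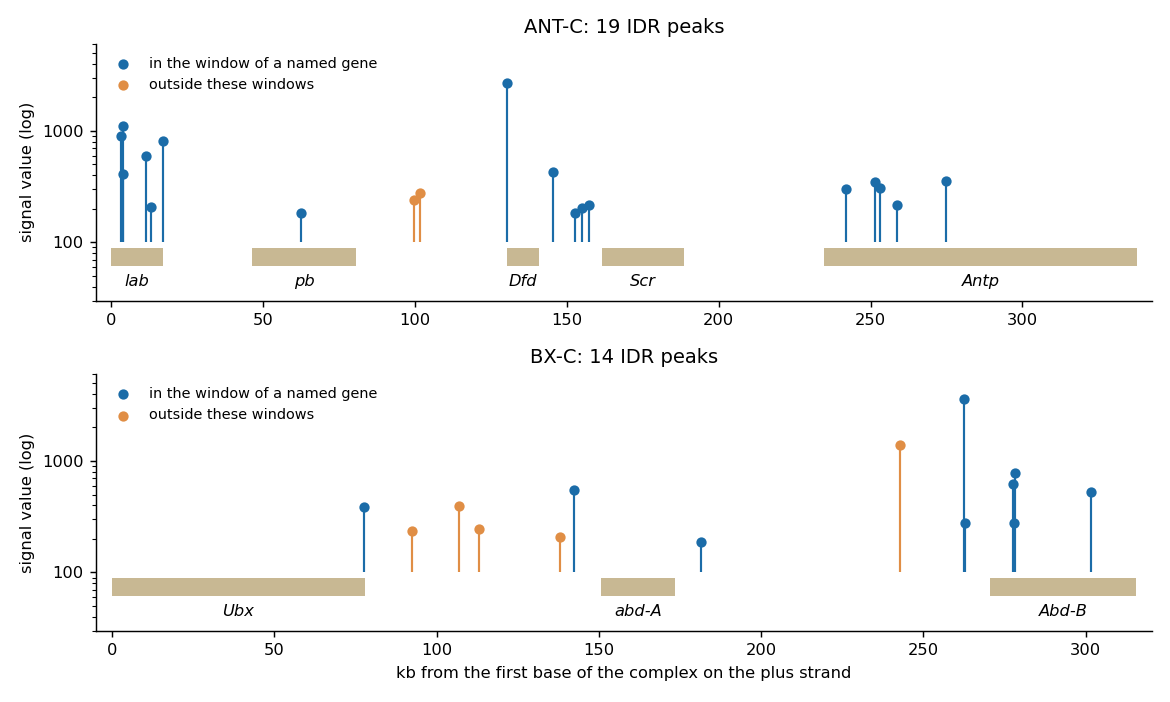
Signal value of each IDR peak on a log axis against its distance in kb from the first base of the complex, for the ANT-C with 19 peaks and the BX-C with 14. Bars show the bodies of the Hox genes, blue peaks lie within 10 kb of one and orange peaks do not; the body of Ubx is empty up to its start, and the strongest peak stands next to Abd-B.

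By position, 25 of the 35 summits were in introns, 7 in intergenic DNA, 2 in other exons and 1 in a 5' UTR. Over all 5400 IDR summits 50.6% were in introns, 30.4% intergenic and 12.9% in a 5' UTR. Introns of any gene were counted, noncoding ones included. Most of these genes are long, so the shares over all summits are not matched for gene length. The 5 promoter summits lay 45 to 167 bp from their TSS, beside a median of 88 bp for the 1676 promoter summits of the series. The median signal value of the 35 peaks was 331, beside 313 for all IDR peaks, and 18 of 35 were in the stronger 2700. Within 100 bp of the summit, on either strand, GAGAG was present in 18 of the 35 peaks and in 29.1% of all IDR peaks. GCCAT was present in 13 peaks and in 27.5% of all. TAATTA, the core sequence of many homeodomain proteins, was present in 5 peaks and in 11.9% of all. TGATTNAT, a joint sequence of a Hox protein and Extradenticle, was found in 3, all at hth, and in 4.54% of all. TGACAG, the Homothorax core, was found in 5 and in 6.46% of all, and TATCGATA, the palindrome of the factor DREF, in 0 and in 1.07% of all. Some of the 35 windows overlap, since neighbouring summits share a peak, so the peaks are not independent. These shares were not tested.

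Other genes of the complexes and of Hox function were counted by the same rules. Of 6 neighbours inside the ANT-C that are not homeotic (bcd, zen, zen2, ftz, Ama and mir-10), 4 had an IDR peak in their window and 0 had one at a start, beside 54.7% and 12.0% of all protein-coding genes. The windows of bcd, zen and Ama shared the same 2 peaks, the stronger in the 5' UTR of Ama (signal value 277), and the 4 of mir-10 are those described for Dfd and Scr. Neither ftz, the pair-rule gene between Scr and Antp, nor zen2 had any. Of 5 noncoding genes of the BX-C, 2 had an IDR peak in the window, beside 54.7% of all protein-coding genes. That share is not matched to noncoding genes or to their length, here from 68 to 92116 bp. The 2 were lncRNA:iab8 and lncRNA:bxd, with 4 each, while lncRNA:iab4, mir-iab-4 and mir-iab-8 had none. The peaks of lncRNA:iab8 include ones described for abd-A and Abd-B, and those of lncRNA:bxd include the promoter peak of Ubx. Among 8 genes of proteins that act with Hox proteins, 4 had a peak in the window and 1 at a start, near the 54.7% and 12.0% of all protein-coding genes. They were disco-r (387), slp1 and slp2, which share theirs (820), and tio, the only one with a summit at a start (197), while tsh, disco, en and lin had none.

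Of 18 genes known as targets of Hox proteins or of their cofactors, 13 had an IDR peak in the window and 10 at a start, beside 54.7% and 12.0% of all protein-coding genes. Many of these targets are long, and of the 12 with a body of at least 10 kb 9 had a peak in the window and 6 at a start, beside 72.3% and 30.2% of all protein-coding genes of that length. The start peaks were led by those of rho (22352), fkh, the salivary gland regulator under Scr (1398), salm (558) and bs (403), which Ubx represses in the haltere. The start of Dll, the limb gene repressed by the abdominal Hox proteins, had a peak of signal value 272, and that of rpr, the cell death gene activated by Dfd, one of 198. CrebA had 8 IDR peaks in its window, none at a start. Con, kn, ems, upd1 and ap had no IDR peak in their windows. The median number per gene was 1 in this list and 1 over all protein-coding genes. These lists were drawn up with earlier results of the data known.

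The genes most alike in pattern were those with the same number of IDR peaks, 6, and the nearest window length among 192 such genes. For lab these were Irk1, Ntan1 and puc, with windows of 37.3, 37.4 and 37.0 kb, and their strongest peaks had signal values of 566, 7280 and 503. For Abd-B they were Nuak, NK7.1 and ND-15, with windows of 64.2, 63.5 and 61.3 kb, and strongest signal values from 421 to 438, all below the 3627 of the peak beyond Abd-B.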

How the data were processed

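Peaks of ChIP-seq for GFP-tagged CG5180 in 3 biological replicates of whole embryos were analysed. Per the labels, chromatin was sheared by sonication to 200 to 800 bp. According to the deposited README notes, a replicate list came from that replicate's alignments plus 1 further file, the pooled list came from the 3 sets of alignments plus this file, and replicate and pooled lists together gave the IDR list. The caller, the aligner and the IDR threshold were not given in the sources used here. Each signal value, a score per peak given by the authors and deposited in each list, was used only to rank peaks within a list. Read depth is unknown. The 5 lists on dm3 were not used.

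Gene models were those of Ensembl release 115 (BDGP6, the coordinates of dm6), positions are 1-based, and all peaks lay within the reference chromosomes. All 10 genes matched RefSeq in start and end. A replicate peak was matched to an IDR peak as the nearest summit within 200 bp, and means and SDs are over the 3 replicates. With 1 group no test compares samples, and no set test was made, so shares over all protein-coding genes are given beside the counts. Counting was checked on simulated peaks. Every gene is named, with each IDR peak at a start and the strongest peak of each gene in full. The genes and lists were chosen with earlier results of these data known. Alternatives were other windows, peak sets and matching distances, merged peaks and leaving out each replicate. Python 3.11.15, numpy 2.4.6 and pandas 2.3.3 were used.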

Additional observations from a re-analysis of the deposited data

How the results depend on the processing

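Of 35 alternative values for the counts and the density, 31 stayed within 1.5 times the reported value and 4 did not. The 35 IDR peaks became 22 in the gene bodies alone and 18 in the stronger 2700 IDR peaks, where the density fell to 2.67 per 100 kb by construction, since fewer peaks were counted. With the 5'-most start of each gene alone, 3 genes in place of 5 had a summit within 250 bp (lab, Dfd and Ubx), since those of Abd-B and hth are at inner starts. The number of genes with a peak ranged from 6 in gene bodies to 9 with 20 kb on each side, and 7 in the stronger 2700 peaks, where pb and Scr were lost. Merging overlapping peaks left 31 regions. Leaving out a replicate kept IDR peaks found among the strongest of both others and gave 7 to 8 genes, 26 to 27 peaks and 5 genes at a start: pb and Scr were lost without replicate 1, pb without replicate 2 and Scr without replicate 3. Mean ranks of the strongest peaks were the same in all 18 alternatives of matching distance. No paired analysis was possible because there is a single group. Read depth is unknown, so weak peaks such as those of pb and Scr cannot be given a counting error.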
